A study of Mus musculus with 7 samples.

Results

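The cytosolic ribosomal protein genes encode the protein parts of the ribosome that works outside mitochondria. They were taken from the table of all genes by symbol (Rpl or Rps followed by a number and, in some, a closing letter or digit, together with Rplp0, Rplp1, Rplp2 and Rpsa), leaving out kinases of ribosomal protein S6 and symbols marked as pseudogenes. The rule found 84 genes among 48526, of which 52 belong to the large subunit and 32 to the small one. GENCODE annotates Rpl6l and Rps4l, which the rule takes in, as processed pseudogenes, so they may make no protein. They were read in bulk polyadenylated RNA from the dissected heart region of mouse embryos (embryonic day 8.5), with 1 library per embryo. The 4 control embryos were Hoxb1 +/+; Nodal flox/+, so they carried 1 conditional Nodal allele and no Cre. The 3 mutant embryos were Hoxb1 Cre/+; Nodal flox/null: 1 Hoxb1 allele carries the Cre recombinase, and the only Nodal allele left is the conditional one. All 7 embryos had a mixed genetic background. Cre was driven by the Hoxb1 locus, whose activity covers posterior tissues and part of the heart precursors, so other cells in the dissected piece need not have lost Nodal.

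Ribosomal proteins assemble with ribosomal RNA in the nucleolus into a small subunit, which decodes messenger RNA, and a large subunit, which joins amino acids. Because every ribosome carries each protein about once, the genes are kept at matched levels, and their messenger RNAs share a start of C and T bases through which growth signals (the kinase mTOR and the RNA-binding protein Larp1) set how strongly they are translated. Mutations of single ribosomal protein genes in mice and humans give defects of particular tissues, including the skeleton, the blood and the spleen. Ribosomal protein genes are also among the most frequent parents of processed pseudogenes, which are copies of a messenger RNA pasted back into the genome.

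Whole reads could be recovered from the deposited normalised counts, and they totalled 7155994 in control 4, the shallowest library, to 15122057 in mutant 2, the deepest. Nodal, the targeted gene, had a normalised count of 7.77, 2.75, 6.71 and 0 for controls 1 to 4 and 0 in all 3 mutants, where a count of 0 allows up to 2.28 to 2.93. Lefty2, a target of Nodal, had a normalised count of 343 to 619 in the control embryos and 1.52 to 4.88 in the mutants. Hoxb1, the locus that carries Cre, was at 546 to 726 in the control embryos and 315 to 401 in the mutants. Cre, the change at Hoxb1 and the loss of Nodal come together in the mutants and cannot be told apart. All 13 heart muscle markers passed the filter on low values. Neighbouring tissue was present in unequal amounts: the summed normalised count of 16 neural tube markers was 2190.2 to 7097 in the control embryos and 3109 to 6254 in the mutants, and that of 11 yolk sac markers was 5040.2 to 17525 in the control embryos and 1325 to 18058 in the mutants. No marker in these lists was at 0 in every library. In bulk tissue, fewer cells of a type and less RNA per cell cannot be told apart. The labels give 4 females (controls 1 and 3, mutants 2 and 3) and 3 males, and the file headers put every female at substage E8.5e and every male at E8.5f. Sex and substage therefore cannot be told apart.

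No ribosomal protein gene passed the test between mutant and control embryos after adjustment over all genes. Of the 84 genes, 81 reached a normalised count of 10 in at least 3 libraries and were tested; Rpl10l, Rpl39l and Rpl3l did not. With limma on log2(normalised count + 1), 0 of the 81 had a Benjamini-Hochberg adjusted p under 0.05, against a background of 0.0128% of the 15599 genes tested, which is Lefty2 and Atp10d, a phospholipid transporter subunit. At an unadjusted p under 0.05, limma gave 1 of the 81, Rpl30, against a background of 3.83%. The count was also 0 with edgeR (background 0.00641%), with DESeq2 (background 0.0513%) and with limma-voom (background 0%), and each of these gave 1 member at an unadjusted p under 0.05.

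The differences were also small. The median log2 difference of the 81 members, mutant minus control, was -0.04, with an interquartile range from -0.06 to -0.02, beside a median of 0.01 over all genes tested. The extremes were Rpl29 at -0.40 and Rpl30 at 0.38, and 74 of the 81 lay within 0.1 of 0. For 63 of the 81 members, or 77.8%, the whole 95% interval of the difference lay inside a 1.2-fold change in either direction, against a background of 22.3% of all genes tested and 62.6% of the 1171 other genes that are as abundant as most members. The median distance from the estimate to the end of its interval was 0.172 on the log2 scale for members, 0.328 for all genes and 0.159 for those as abundant. These are the values plotted in the chart of differences with intervals.

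**Figure D1:**
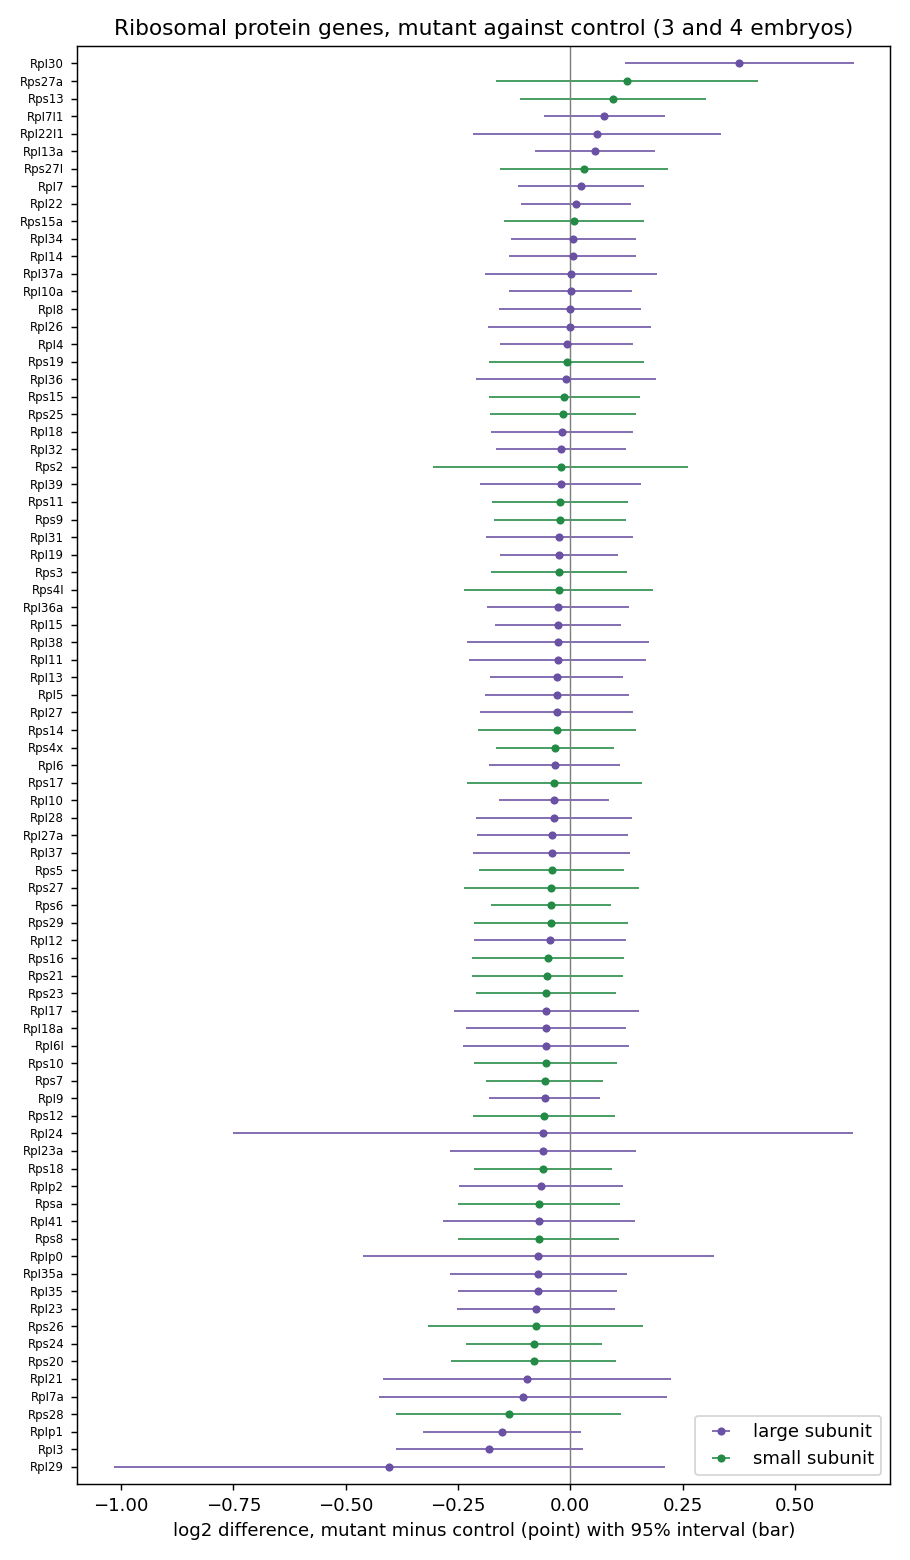
Log2 difference of the 81 tested ribosomal protein genes, 3 mutants minus 4 controls, from limma on log2(normalised count + 1), with the 95% interval as a bar; large subunit genes are purple and small subunit genes green. Rpl30 at the top has the only interval that leaves 0 out, Rpl29 at the bottom and Rpl24 have the widest, and nearly all other points sit within 0.1 of 0.

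Most of the small differences had the same sign. The log2 difference was below 0 in 67 of the 81 members and above 0 in 14, against a background of 48.3% below 0 over all genes tested. Of the other genes as abundant as most members, 31.5% were below 0, with a median of 0.04. In the large subunit 39 genes were below 0 and 10 above, with a median of -0.03, and in the small subunit 28 were below and 4 above, with a median of -0.04. That count rested on 1 embryo: without mutant 2, 58 of 81 were above 0 and the median was 0.02. Without control 4 it was 31 above 0, and without control 3 it was 25. With each of the other libraries left out it was 6 to 12. Since the members of 1 library move together, the 81 signs are not 81 observations.

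Between embryos the genes varied as a block. Control 4 had the highest value of all 7 embryos for 52 of the 81 members, and mutant 2 had the lowest for 60. Relative to each gene's own median over the 7 embryos, the median member stood at -0.04, -0.09, 0.06 and 0.10 on the log2 scale for controls 1 to 4 and at 0.04, -0.13 and 0 for mutants 1 to 3. Embryos of both genotypes thus stand at either end, and the range within the controls alone is wider than the difference between the groups. The mean log2 level over the members was 11.76 ± 0.09 (SD, n = 4) in the control embryos and 11.72 ± 0.09 (SD, n = 3) in the mutants. As a share of all reads, the members took 3.11%, 2.97%, 3.49% and 3.38% for controls 1 to 4 and 3.22%, 2.91% and 3.25% for mutants 1 to 3. Among other genes as abundant as most members, the same median stayed between -0.02 and 0.01 in the 7 embryos.

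Sequencing depth ran in nearly the reverse order of the ribosomal protein level. Control 4 with 7155994 reads and control 3 with 10037739 had the highest members, mutant 1 with 11998513 and mutant 3 with 12623459 followed, and controls 2 and 1 with 12693876 and 13223545 and mutant 2 with 15122057 had the lowest. The part of depth in the level was not tested. The yolk sac markers also ran nearly in reverse: their mean log2 level was 7.93, 8.42, 5.65 and 8.23 in control 4, control 3, mutant 1 and mutant 3, the 4 embryos highest in members, and 9.65 and 8.83 in controls 1 and 2, with mutant 2 between them. The part of yolk sac in the level was not tested. The neural tube list did not sort the embryos this way, with a mean log2 level of 7.92 in control 3 and 4.07 in control 4, both high in members, and 7.13 in mutant 2 and 3.76 in control 2, both low. With a covariate for the neural tube level, 15 members were above 0, and with sex 17. Among the 4 female embryos alone, 5 of the 81 members were above 0 with a median of -0.07, and the males include only 1 mutant.

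**Figure D2:**
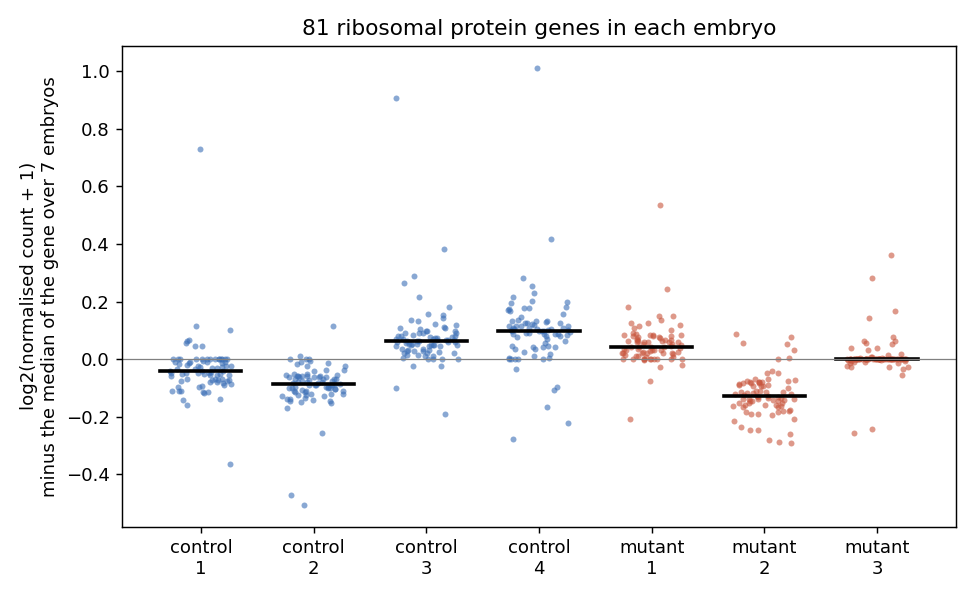
Each point is 1 of 81 ribosomal protein genes in 1 embryo, as its log2(normalised count + 1) minus that gene's median over the 7 embryos; the black bar is the median of the points, controls are blue and mutants red. The bars run from -0.13 in mutant 2 to 0.10 in control 4, and the clouds move as a whole, while the few far points above 0.4 or below -0.4 are single genes.

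The heart region used these genes at high and unequal levels. Per kilobase of annotated transcript, the mean normalised count over the 7 embryos was highest for Rpl41, a very short basic protein of the large subunit, at 17122. It was 11929 for Rps15, a small subunit protein near the decoding centre, and 11124 for Rplp1 of the stalk. The lowest tested were Rpl24 at 93.2, Rpl22l1 at 659 and Rpl13a at 753. The ranking depends on the length of the 1 annotated transcript taken per gene, such as 1047 bases for Rpl13a with 609 coding bases. RNA selected by its poly(A) tail and counted per gene reads these levels only as well as reads can be told from those of copies elsewhere in the genome. This is described below for some of the genes concerned. Others are not described further: copies held 60.9% of the summed count of gene and copies for Rpl21, 51.4% for Rpl17 and 48.7% for Rpl23a.

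The C and T start that is known for this family was read from the RefSeq promoter table (GRCm38.p6), which matched 62 of the 84 genes. A C at an annotated start, followed by at least 4 bases that are each C or T on the gene's own strand, was present in 13 of the 62, against 3.01% of all 27025 genes in the table. A run of at least 8 C or T between 10 bases before and 20 bases after a start was present in 31 of the 62, against 19.2% of all genes. Among translation factors the first pattern was present in 3 of 18 genes, in ribosome assembly genes in 1 of 55, and among mitochondrial ribosomal protein genes, whose proteins are made by the same cytosolic ribosomes, in 0 of 69. The starts are annotated ones, and an annotation a few bases off hides the pattern. The 8 member genes with the pattern that had the highest level per kilobase are printed to show it, each with 15 bases before and 15 from the start on, and with the C and T run from the start in capitals.
Rps6 (chr4:86857353-86857382, minus strand): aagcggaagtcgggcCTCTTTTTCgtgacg
Rplp2 (chr7:141447636-141447665, plus strand): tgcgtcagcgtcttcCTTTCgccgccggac
Rps18 (chr17:33955651-33955680, minus strand): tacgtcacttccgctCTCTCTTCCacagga
Rps10 (chr17:27635230-27635259, minus strand): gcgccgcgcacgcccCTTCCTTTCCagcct
Rpl28 (chr7:4792950-4792979, plus strand): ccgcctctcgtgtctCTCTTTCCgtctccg
Rps27 (chr3:90213634-90213663, minus strand): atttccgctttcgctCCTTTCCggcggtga
Rpl15 (chr14:18270972-18271001, minus strand): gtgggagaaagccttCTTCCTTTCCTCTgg
Rpl14 (chr9:120571502-120571531, plus strand): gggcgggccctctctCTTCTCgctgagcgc
Rps6, the substrate of S6 kinase at the end of the mTOR pathway, had a normalised count of 8357 ± 380.4 (SD, n = 4) in the control embryos and 8110.0 ± 339 (SD, n = 3) in the mutants, a log2 difference of -0.04 with a 95% interval of -0.18 to 0.09. Rplp2 was at 3771 ± 297 in the control embryos and 3604 ± 269 in the mutants, a difference of -0.06 with a standard error of 0.08. Both intervals include 0.

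Rpl30, a large subunit protein that in yeast also binds its own transcript, was the member with the smallest p. Its normalised count was 1405, 1272, 1806 and 1548 for controls 1 to 4 and 1947, 1879.9 and 1995 for mutants 1 to 3. Every mutant was above every control, which held for this member alone among the 81, against a background of 5.78% of all genes tested whose groups do not overlap. The log2 difference was 0.38 with a standard error of 0.11 and a 95% interval of 0.12 to 0.63, but its limma adjusted p over all genes was 0.967. Leaving out control 3, the highest control, gave an adjusted p of 0.152 in limma. In every other alternative fit the adjusted p of Rpl30 was 0.86 or more. In the authors' deposited table of selected genes, Rpl30 is the only member of the family, with a ratio of 1.29 and an unadjusted DESeq2 p of 0.0039. That table does not require a gene to pass adjustment, and 0 members had an adjusted p under 0.05 from the authors. The share of members in that table was not compared with the share of all genes.

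Reads of Rpl30 may be split with its pseudogene Gm12191, which had the opposite sign. Gm12191 is a processed pseudogene on chromosome 11 (chr11:49678710-49679057, GRCm38) that differs from the coding sequence of Rpl30, on chromosome 15, at 1 of 345 aligned bases. That base is in capitals in the 60 bases printed for both.
Rpl30 (chr15:34442677-34442736, minus strand): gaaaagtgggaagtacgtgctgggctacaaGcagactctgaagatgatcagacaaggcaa
Gm12191 (chr11:49678933-49678992, minus strand): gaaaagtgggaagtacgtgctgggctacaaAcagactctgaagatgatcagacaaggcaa
Gm12191 had a normalised count of 602, 560.2, 499 and 756 in the control embryos and 342, 357 and 413 in the mutants, so that here every mutant was below every control. Its log2 difference was -0.69 with a standard error of 0.14, with an adjusted p of 0.967 in limma and 0.0224 in DESeq2. It was 1 of 8 genes that DESeq2 called, and the only copy of a member among them. When Rpl30 was added to its 13 pseudogene copies with reads, the sum was 2170.0, 1963, 2495 and 2493 in the control embryos and 2439.8, 2375 and 2594 in the mutants. The groups then overlapped, and the log2 difference of the sum was 0.12 with a standard error of 0.09. The sources used here do not say how the authors' counting treated reads that match several places.

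Rplp0, the base of the stalk that recruits translation factors to the ribosome, was read together with its copies in an opposite pattern. Its normalised count was 12726, 12701, 17696 and 18153 for controls 1 to 4 and 13589, 12496 and 17479.5 for mutants 1 to 3. Controls 1 and 2 and mutants 1 and 2 formed a low set and controls 3 and 4 and mutant 3 a high one, which follows neither genotype nor sex. The split does follow the sample titles: the low set holds the lower title numbers and the high set the higher ones. The part of that grouping in the pattern was not tested. The Rplp0 pseudogene Gm8730 (chr8:102864845-102865798), which differs at 12 of 951 aligned bases, was at 4173, 4138, 1216 and 1091 in the control embryos and at 4356, 4248 and 838 in the mutants, high exactly where Rplp0 was low. A second pseudogene on chromosome 13, Gm9625, was at 1044, 1041, 273 and 257 in the control embryos and at 1051, 1060.2 and 216 in the mutants. The 60 bases printed hold 3 of the 12 differences between Rplp0 and Gm8730, in capitals.
Rplp0 (chr5:115561168-115561227, plus strand): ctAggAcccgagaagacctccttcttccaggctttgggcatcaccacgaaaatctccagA
Gm8730 (chr8:102865352-102865411, minus strand): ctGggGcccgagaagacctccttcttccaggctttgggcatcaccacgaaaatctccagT
The sum of Rplp0 and its 6 copies with reads ranged 1.09-fold over the 7 embryos, where Rplp0 alone ranged 1.45-fold. The SD within groups was 0.0557 on the log2 scale for the sum and 0.273 for the gene. The log2 difference between mutants and controls was -0.07 for the gene with a standard error of 0.17, and -0.01 for the sum with a standard error of 0.06.

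Rpl3, which lies next to the catalytic centre of the large subunit, had a normalised count of 8479, 9750.0, 11003 and 10471 in the control embryos and 9006, 8315 and 8845 in the mutants. All mutants were below 3 of the controls and around control 1. The log2 difference was -0.18 with a standard error of 0.09 and an adjusted p of 0.967 in limma. Its pseudogene Rpl3-ps1 on the X chromosome (chrX:13202571-13203780) differs at 2 of 1209 aligned bases, 1 of them in capitals in the 60 bases printed.
Rpl3 (chr15:80082500-80082559, minus strand): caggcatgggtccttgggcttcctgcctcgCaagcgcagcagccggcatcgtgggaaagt
Rpl3-ps1 (chrX:13202598-13202657, plus strand): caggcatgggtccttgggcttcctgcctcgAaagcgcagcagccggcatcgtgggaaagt
Rpl3-ps1 was at 2559.6, 1272, 1531 and 1606 in the control embryos and at 2725, 2447 and 2563 in the mutants. It was high in control 1 and the 3 mutants, the same 4 embryos in which Rpl3 was lowest. Its own log2 difference was 0.61 with a standard error of 0.21 (limma adjusted p of 0.967), and that of Rpl3 with its 7 copies with reads was -0.04 with a standard error of 0.07.

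Rpl29, a small basic protein of the large subunit whose loss in mice slows growth, had the lowest difference and the widest spread of the abundant members. Its normalised count was 2619, 1322, 2965 and 1580.3 in the control embryos and 1501, 1442 and 1615 in the mutants. Controls 1 and 3, both female, were high, and controls 2 and 4, both male, were level with the mutants of both sexes. The log2 difference of -0.40 had a standard error of 0.27 and an adjusted p of 0.967 in limma. Gm8210, a pseudogene on chromosome 1 with 3 differences in 480 aligned bases, was at 128, 358, 134 and 411 in the control embryos and at 432, 401 and 374 in the mutants, low in the 2 controls where Rpl29 was high. The 60 bases printed hold 1 of the 3 differences, in capitals.
Rpl29 (chr9:106430312-106430371, plus strand): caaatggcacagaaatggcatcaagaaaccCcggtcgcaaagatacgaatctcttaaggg
Gm8210 (chr1:43189197-43189256, plus strand): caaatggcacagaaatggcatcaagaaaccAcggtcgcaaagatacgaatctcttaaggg
Copies held 49.3% of the summed reads of Rpl29 and its 43 copies with reads, and the log2 difference of that sum was -0.18 with a standard error of 0.14.

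**Figure D3:**
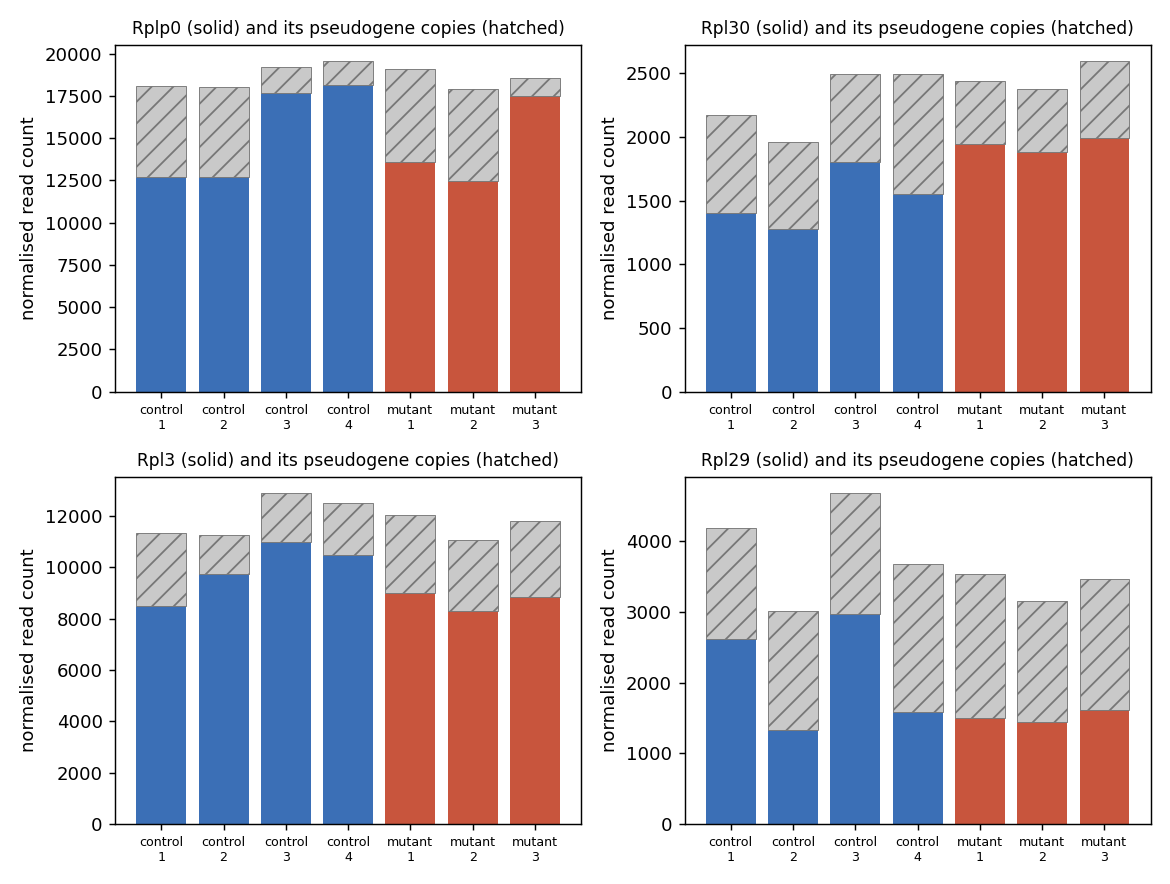
Normalised read count of Rplp0, Rpl30, Rpl3 and Rpl29 (solid, blue in the control embryos and red in the mutants) with the summed count of their pseudogene copies stacked on top (hatched grey), per embryo. For Rplp0 the solid part lies between 12496 and 18153 while the stacked total stays within 1.09-fold, and for Rpl30 the solid part is higher in every mutant while the totals overlap.

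Such opposite values of gene and copy were not general. Pseudogene copies were found by matching coding sequences to GENCODE M21 pseudogenes with at least 90% identity over at least 100 aligned bases, which gave 1135 copies, of which 894 are in the table and 697 had reads. Among the 77 tested members that have a copy with reads, the sum varied less within groups than the gene alone for 14, and more or equally for the rest. In all, copies held 14.1% to 15.7% of the reads of members and copies together in the 7 libraries. Of the 318 copies that passed the filter, 0 were called by limma, 10 had an unadjusted p under 0.05 against the background of 3.83%, and 258 had a difference below 0 against the background of 48.3%, with a median of -0.17. Their mean log2 level was 5.95, 5.90, 6.09 and 6.33 for controls 1 to 4 and 6.02, 5.69 and 5.99 for mutants 1 to 3. It followed that of the members, with control 4 as the highest and mutant 2 as the lowest. The copies share these libraries, so their signs are not independent. In the authors' deposited table of selected genes, which does not require a gene to pass adjustment, 12 pseudogenes carry the symbol of a ribosomal protein gene. Of these, 11 have a ratio below 1. The share below 1 among all genes of that table was not counted, so the 11 have no background to be read against.

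The remaining members at the ends of the range did not pass the test either. Rplp1, which pairs with Rplp2 in the stalk, had a normalised count of 5796 ± 304 (SD, n = 4) in the control embryos and 5225 ± 508 (SD, n = 3) in the mutants, with a log2 difference of -0.15 and a standard error of 0.08. Rps28, a small subunit protein at the exit of the messenger RNA channel, differed by -0.14 with a standard error of 0.11, and Rpl7a by -0.11 with a standard error of 0.14. Rps27a, which is made as a fusion to ubiquitin, differed by 0.13 with a standard error of 0.13, and Rps13 by 0.09 with a standard error of 0.09. Each of these has an adjusted p of 0.967 in limma, and their groups overlap.

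Genes whose mutation alters mouse development did not pass the test, and most had narrow intervals around 0. Rpl38, mutated in the Tail-short mouse and known for its part in the translation of Hox transcripts, had a normalised count of 1288, 1261, 1406 and 1461 in the control embryos and 1425, 1174 and 1393 in the mutants. The lowest value and the second highest are both from mutants, and the log2 difference was -0.03 with a 95% interval of -0.23 to 0.18. Rpsa, mutated in humans born without a spleen, was at 14716 ± 1059 (SD, n = 4) in the control embryos and 14024 ± 1070.0 (SD, n = 3) in the mutants, a log2 difference of -0.07 with an interval of -0.25 to 0.11. Rps19 and Rps20, in which mutations darken the skin of mice, differed by -0.01 and -0.08 with standard errors of 0.07 and 0.08, and Rps7 by -0.06 with a standard error of 0.06. Rpl27a differed by -0.04 with a standard error of 0.07. The interval was wide for Rpl24, mutated in the Belly spot and tail mouse, whose normalised count was 49.5 to 106 in the 7 embryos. Copies held 87.2% of the summed count of Rpl24 and its copies. The log2 difference of Rpl24 was -0.06, with an interval of -0.75 to 0.63.

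Members with known work outside the ribosome also had differences within their error. Rpl5 and Rpl11, which bind Mdm2 and stabilise p53 when ribosome assembly fails, each differed by -0.03, with 95% intervals of -0.19 to 0.13 and -0.23 to 0.17. Rps3, which also takes part in DNA repair and NF-kappaB signalling, differed by -0.03 with a standard error of 0.07, and Rps14 by -0.03 with a standard error of 0.08. Rpl10a had a normalised count of 6099 ± 257 (SD, n = 4) in the control embryos and 6103 ± 332 (SD, n = 3) in the mutants, a log2 difference of 0.00 with an interval of -0.14 to 0.14. Rpl13a, which in human monocytes leaves the ribosome to silence inflammatory transcripts, was at 775 ± 31.8 in the control embryos and 805 ± 9.20 in the mutants, a difference of 0.06 with a standard error of 0.06.

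The 4 X-linked members, Rpl10, Rpl36a, Rpl39 and Rps4x, did not separate the sexes. Rps4x had a normalised count of 6898 to 7629 in the 4 females and 7219.7 to 7738 in the 3 males, and Rpl10 had 4895 to 5335 in females and 4952 to 5362 in males. The ranges of the sexes overlapped for all 4 genes. Between genotypes their log2 differences ran from -0.04 to -0.02, with standard errors of 0.05 to 0.08.

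Several ribosomal proteins have a paralog that can take their place in the ribosome, and the balance within each pair does not depend on how libraries are scaled. Rpl3l, which replaces Rpl3 in mature striated muscle, had a normalised count of 0 to 3.27 in the 7 embryos of this early heart region, at most 0.0312% of Rpl3. Rpl10l and Rpl39l, best known from male germ cells, were at 0 to 0.976 and at 0 to 3.27. Rpl22l1, which Rpl22 keeps low in mice, was at 9.08% to 11.6% of the count of Rpl22 in the control embryos and at 9.20% to 12.3% in the mutants. Rpl7l1, a nucleolar relative, was at 23.0% to 27.1% of Rpl7 in the control embryos and at 24.6% to 27.6% in the mutants. Rps27l, a p53 target in human cells, was at 30.1% to 41.8% of Rps27 in the control embryos and 34.5% to 42.3% in the mutants. Rpl36al, which the symbol rule leaves out, was at 40.4% to 53.1% of Rpl36a in the control embryos and 46.6% to 52.5% in the mutants. Rps4l, annotated by GENCODE as a processed pseudogene, was at 10.1% to 13.2% of Rps4x in the control embryos and 11.7% to 12.2% in the mutants.

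Control and mutant ranges overlapped in each of these pairs. The exact two-sided permutation test of the log2 ratio, over 35 arrangements of the embryos, gave p = 0.771 for Rpl22l1, 0.514 for Rpl7l1, 0.543 for Rps27l, 0.714 for Rpl36al and 1 for Rps4l, where the smallest p the design allows is 0.0286. Adjusted over the 5 pairs the values were 0.964 to 1, and with this adjustment a single pair at the smallest p could not pass 0.05. The mean differences in log2 ratio, mutant minus control, were 0.05, 0.05, 0.07, 0.07 and 0.01 in that order, each smaller than the SD among the controls, which was 0.17, 0.11, 0.19, 0.17 and 0.16. Rps27l, printed in the same way as Rps27, has no C at its annotated start and so no run in capitals.
Rps27l (chr9:66946071-66946100, plus strand): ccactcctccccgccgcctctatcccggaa

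The genes that make and use ribosomes were counted in the same fit. Of 64 genes of ribosomal RNA synthesis and ribosome assembly, 60 were higher in the mutants and 4 lower. Over all genes tested, 8065 of 15599 were higher. The median log2 difference was 0.10 for the assembly genes, beside 0.01 over all genes tested and -0.04 for the ribosomal proteins. Among the 1171 other genes as abundant as most ribosomal protein genes, 31.5% were lower in the mutants, with a median of 0.04. None of the 64 assembly genes was called by limma, and 15 had an unadjusted p under 0.05, against the background of 3.83%. The count of higher genes was 53 to 60 in every alternative fit, with 53 among the female embryos alone, 54 when neural tube level was a covariate and 59 without mutant 2. The assembly genes averaged, on the log2 scale, 10.24, 10.21, 10.32 and 10.19 for controls 1 to 4 and 10.32, 10.34 and 10.35 for mutants 1 to 3, and control 3 was level with mutant 1. All 12 tested neural tube markers were higher in mutants. Their mean log2 level was 5.08, 3.76, 7.92 and 4.07 for controls 1 to 4 and 4.41, 7.13 and 7.73 for mutants 1 to 3. Mutant 1 was thus far below control 3 in this list. All 13 heart muscle markers were lower in mutants, with a median log2 difference of -0.24. The mean log2 level of the heart muscle list was 12.27, 12.36, 11.08 and 12.67 for controls 1 to 4. It was 12.34, 11.35 and 11.70 for mutants 1 to 3, so the groups overlap and the lowest embryo is control 3. The paraxial mesoderm list moved with the assembly genes: 6 of its 7 tested markers were higher in mutants, its mean log2 level was 7.28 in control 3 and 6.41, 6.79 and 7.39 for mutants 1 to 3, and it was 4.44, 5.87 and 5.46 in controls 1, 2 and 4. The parts of paraxial mesoderm and heart muscle in the difference of the assembly genes were not tested. The genes of this list share libraries, and their signs are not independent.

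The 3 assembly genes with the smallest p were Ubtf, Taf1c and Nop10. Ubtf, which opens ribosomal DNA for RNA polymerase I, had a normalised count of 2668, 2759.5, 2761 and 2815 in the control embryos and 3108, 3235 and 3169.5 in the mutants. All mutants were above all controls, with a log2 difference of 0.20, a standard error of 0.05 and an adjusted p of 0.967 in limma. Taf1c, a subunit of the factor that brings that polymerase to its promoter, differed by 0.33 with a standard error of 0.10. Nop10, part of the particles that convert uridines of ribosomal RNA, differed by 0.20 with a standard error of 0.06. Taf1c and Nop10 both have an adjusted p of 0.967 in limma, and their groups do not overlap either. In all, the groups did not overlap for 11 of the 64 assembly genes, against a background of 5.78% of all genes tested.

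The other lists were counted in the same way. The backgrounds are again 3.83% with an unadjusted p under 0.05, and 8065 of 15599 genes higher. Of 77 tested mitochondrial ribosomal protein genes, 58 were higher and 19 lower, with a median of 0.04, and 47 to 64 were higher when single embryos were left out. None was called by limma and 3 had an unadjusted p under 0.05, with Mrpl39 at 0.16 and Mrpl33 at -0.26. Of 25 translation factors, 14 were higher and 11 lower with a median of 0.01, none called and 1 with an unadjusted p under 0.05, the elongation factor subunit Eef1d at 0.12. Of 22 growth regulators of ribosome supply, 17 were higher and 5 lower with a median of 0.07, none called and 3 with an unadjusted p under 0.05. These were Mycn at 0.27 with a standard error of 0.10, Myc at 0.24 with 0.09, and their partner Max at 0.19 with 0.07. Of 17 p53 targets, 10 were higher and 7 lower with a median of 0.06, none called and 3 with an unadjusted p under 0.05. The dot plot of these lists shows the assembly genes as the list farthest above the line of all genes.

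**Figure D4:**
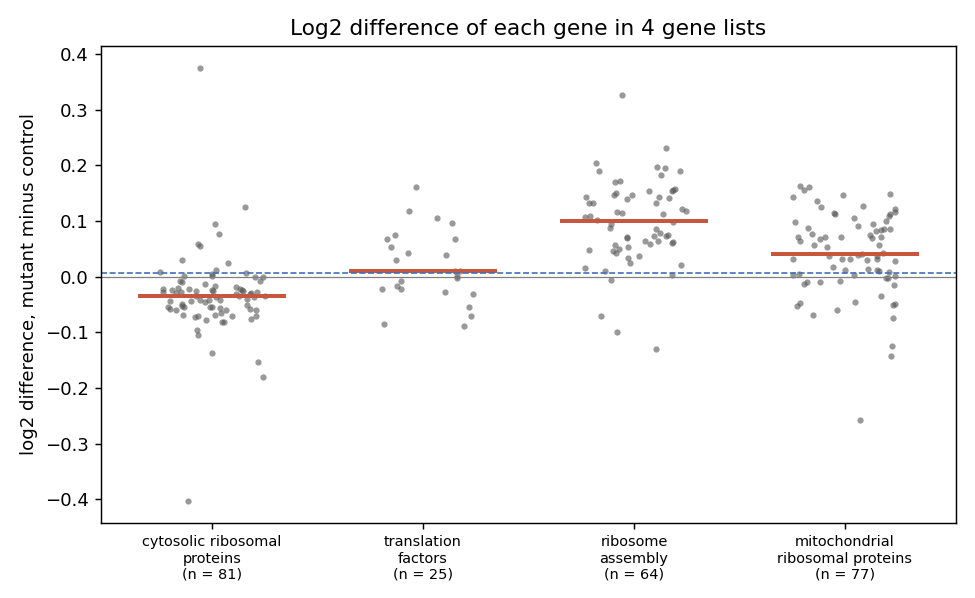
Log2 difference, mutant minus control, of every tested gene in 4 lists; the red bar is the median of the list and the dashed blue line the median of all 15599 genes tested, 0.01. The ribosomal protein genes lie closely around -0.04 with Rpl30 and Rpl29 apart, and the ribosome assembly genes around 0.10.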

How the data were processed

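RNA of the dissected heart region of 7 embryos was sequenced, 1 library each, from a kit for polyadenylated RNA that keeps strand, per the labels' protocols. HISAT2, featureCounts, Subread, DESeq2, edgeR, limma and the build GRCm38 are named, without versions, in the submitters' processing notes. The sources used here do not give the annotation, the strand setting or the treatment of reads with several matches. The authors deposited a normalised signal per library, which is the gene's count divided by 1 size factor: 100% of values were whole multiples of 1 read within a tolerance of 0.1. The authors' deposited tables also hold the ratio of group means and p-values. Recovered totals were 7155994 to 15122057 reads, and intervals cover the spread between embryos only.

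Genes reaching a normalised count of 10 in 3 or more libraries were tested with limma 3.58.1 in R 4.3.3 (trended empirical Bayes) on log2(normalised count + 1), without covariates, with Benjamini-Hochberg adjustment over all 15599 genes. Fold changes on this scale understate changes of low genes. The fit was tested on simulated data. The labels do not say whether embryos share a litter, so p-values measure the spread between these embryos. Alternatives were edgeR 4.0.16, DESeq2 1.42.0 and limma-voom on recovered reads, other scalings, filters and pseudocounts, sex or neural tube level as a covariate, females alone and leaving out each embryo. Summing genes with pseudogene copies was added after seeing the data; copies were found with BLAST 2.17.0 in GENCODE M21, which also gave coordinates and transcript lengths (1 principal transcript per gene).

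Members named are those past the threshold, the 5 highest and 5 lowest differences, the 5 smallest p, the 3 highest and 3 lowest per kilobase, paralog pairs, X-linked and stalk members, and members with known mouse mutants or other roles; of each comparison list, up to 3 genes with the smallest p. The pseudogenes and Atp10d were chosen after their values were seen. The members and lists were chosen with earlier results of these data known. The untested members and copies below the filter enter no count of differences. The list of ribosomal proteins outside the symbol rule is not reported here.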

Additional observations from a re-analysis of the deposited data

Results flagged for a closer look

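In the 4 controls, 1 library stood apart from the other 3 for 2 of the 81 members, where chance alone flags about 1 in 20 groups, or 4.05 of 81. Rpl15, a large subunit protein, had a normalised count of 3205 in control 2 and 3604 to 3687 in the other 3 controls. Rpl24, whose counts are low, was at 106 in control 4, the library with the fewest reads, and at no more than 52.3 in the other 3.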

How the results depend on the processing

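The count of 0 ribosomal protein genes past the threshold held in all 22 alternative fits. The count of 0 paralog pairs held at both other pseudocounts. With all embryos, a single pair at the smallest possible p of 0.0286 could not pass after adjustment over the pairs, so this count carries little weight. With an embryo left out the exact test cannot reach the threshold at all. The count of members above 0, 14 of 81, was 9 with TMM scaling, 9 with edgeR, 8 with limma-voom, 5 in females alone and 9 for genes summed with their copies. Leaving out 1 embryo gave 6 to 58, the lowest without mutant 1 (6) and the highest without mutant 2 (58), with 8 without control 2, 25 without control 3 and 31 without control 4, and the cause was not tested. The median over members was -0.07 to 0.02, above 0 only without mutant 2. Of the named members at the ends of the range, Rps27a was at -0.004 in females alone and Rpl7a at 0.005 without mutant 2. Rpl22l1, at 0.06 in the main fit, was at -0.06 in females alone, -0.008 without control 4 and -0.0002 without mutant 1. Rpl30, Rpl29, Rpl3, Rplp1, Rps28, Rps13 and Rpl7l1 kept their sign in all alternatives, with Rpl30 at 0.12 to 0.47 and Rpl29 at -0.87 in females alone. The median of p53 targets was -0.004 with the neural tube covariate and 0.02 without mutant 3. Rpl24 and the 3 untested members have few reads, which limits their precision. No paired analysis was possible because the labels give the embryos no replicate numbers and name no litters.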
